A study of Rattus norvegicus with 14 samples.

Results

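The genes described here encode 10 transporters that carry amino acids or short peptides across the membrane of epithelial cells. They were chosen by name, as the array probes other than controls whose gene name was Slc15a1, Slc6a19, Slc6a14, Slc7a5, Slc7a8, Slc7a9, Slc3a1, Slc3a2, Slc1a5 or Slc38a2. All 10 were on the array, with 12 probes among the 30367 that were not controls, and the whole array held 26276 gene names. Slc15a1 had 3 probes and each other gene had 1.

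The study asked how the colon epithelium responds to a diet rich in protein. Young male rats of the Wistar strain, first kept on a standard rodent diet, were fed ad libitum for 15 days on a normal-protein diet (NPD, 14% of energy from protein) or an isocaloric high-protein diet (HPD, 55%). RNA from the colonocytes of each rat was labelled with Cy3 and hybridised to a 1-colour Agilent array, with an array for each rat, which gave 7 arrays per diet. The rats carried no transgene, and both groups received whole milk protein. Colonocytes were detached with EDTA and gentle tapping from the colon without its last segment, which served other measurements, so each sample was a mixture of epithelial cells in bulk, in which fewer cells of a type and less RNA per cell cannot be told apart.

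Amino acids cross an absorptive epithelium in steps. Carriers of the apical membrane take up free amino acids or small peptides from the lumen, exchangers of the basolateral membrane pass them on towards the blood, and other carriers bring amino acids in for use by the cell itself. Several of these carriers are pairs, in which a light chain such as Slc7a5, Slc7a8 or Slc7a9 does the transport and a heavy chain, Slc3a2 or Slc3a1, brings it to the membrane. Most dietary protein is absorbed in the small intestine, and the colon receives what is left together with the products of bacteria.

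The 9 genes listed for absorptive colonocytes, among them Slc26a3, Car1 and Krt20, were well above background on all 14 arrays. The list also holds the general epithelial genes Epcam, Cdh1 and Krt8. The summed level of the 9, in multiples of the array median, was 3859 to 4666 in the NPD samples and 3638 to 5731 in the HPD samples. Of the 5 small intestine markers on the array, 4 were well above background on all arrays, and the lactase gene Lct was among them. The 5 had a summed level of 71.4 to 127 (NPD) and 68.5 to 152 (HPD), most of it from Fabp2. On the log2 scale the mean of Fabp2 was 6.37 (NPD) and 6.47 (HPD), and that of the next, Alpi, 1.58 and 1.76. All 5 goblet cell markers were above background (4509 to 7048 and 3158 to 9445). Among the HPD rats, replicate 1 had the highest value of each, with Clca1 at 11.83 and Fcgbp at 9.10 on the log2 scale. The summed immune markers were at 19.3 to 72.8 (NPD) and 11.7 to 22.7 (HPD), and the NPD maximum was 29.0 without NPD replicate 4. Cd3e was well above background on 3 NPD arrays and no HPD array. The 4 enteroendocrine markers summed to 543 to 1128 and 401 to 1327, the 4 stem and cycling markers on the array to 55.7 to 76.8 and 45.8 to 87.7, and the 6 stromal and muscle markers to 10.73 to 25.2 and 10.2 to 18.8. Of the 38 markers on the array, 8 had an unadjusted p under 0.05 in limma, 21.1%, where 11.4% of all probes did. Lower in the HPD group were Agr2 (-0.63) and Clca1 (-0.56) of the goblet list, Top2a (-0.68), Cd74 (-0.62) and Myh11 (-0.48), on the log2 scale, and higher were Col1a1 (0.35) and Lct (0.30). The remaining one, Col3a1, was above background on 1 array only, and the goblet mucin Muc2 had a change of 0.01. The other stem and cycling markers, not under that p, were at 0.27 (Ccna2), 0.44 (Lgr5) and -0.45 (Ascl2). The other stromal and muscle markers, not under it either, were at 0.07 (Acta2), -0.41 (Vim) and -0.56 (Des). None of these markers was called, and their part in the transporter results was not tested. The arrays lay on 2 slides, told apart by the barcode in the header of each scanner file. Of the NPD arrays 4 were on slide 1 and 3 on slide 2, and of the HPD arrays 3 and 4. Between 18926 and 21042 probes were well above background per array.

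The values below are log2 signals after background subtraction, relative to the median probe of the same array, so that 0 is the array median and each step of 1 is a doubling. They compare one probe between rats and not one probe with another. limma called 17 probes of the array, 0.056% of those tested, at a Benjamini-Hochberg q-value below 0.1, and 0 of the 10 transporter genes. At an unadjusted p under 0.05, which 11.4% of all probes reached, limma likewise had 0 of the 12 transporter probes. By their brightest probe, 7 of the 9 genes above background on any array, which leaves out Slc6a19, had a lower mean in the HPD group and 2 a higher one. Their median log2 fold change was -0.11, where that of all probes was 0.105. With slide as a block, 8 were lower and 1 higher, the median was -0.096 beside 0.066 for all probes, and 0 of the 10 were called where 0.0889% of probes were. The medians of all probes include probes not well above background, so the 9 genes are not set against measured probes alone. After cyclic loess normalization the median of all probes on diet only was 0.001. Single genes were further tested by exact two-sided permutation over the 1716 splits of the rats, and over the 1225 splits that exchange diets only among rats of the same slide.

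**Figure D1:**
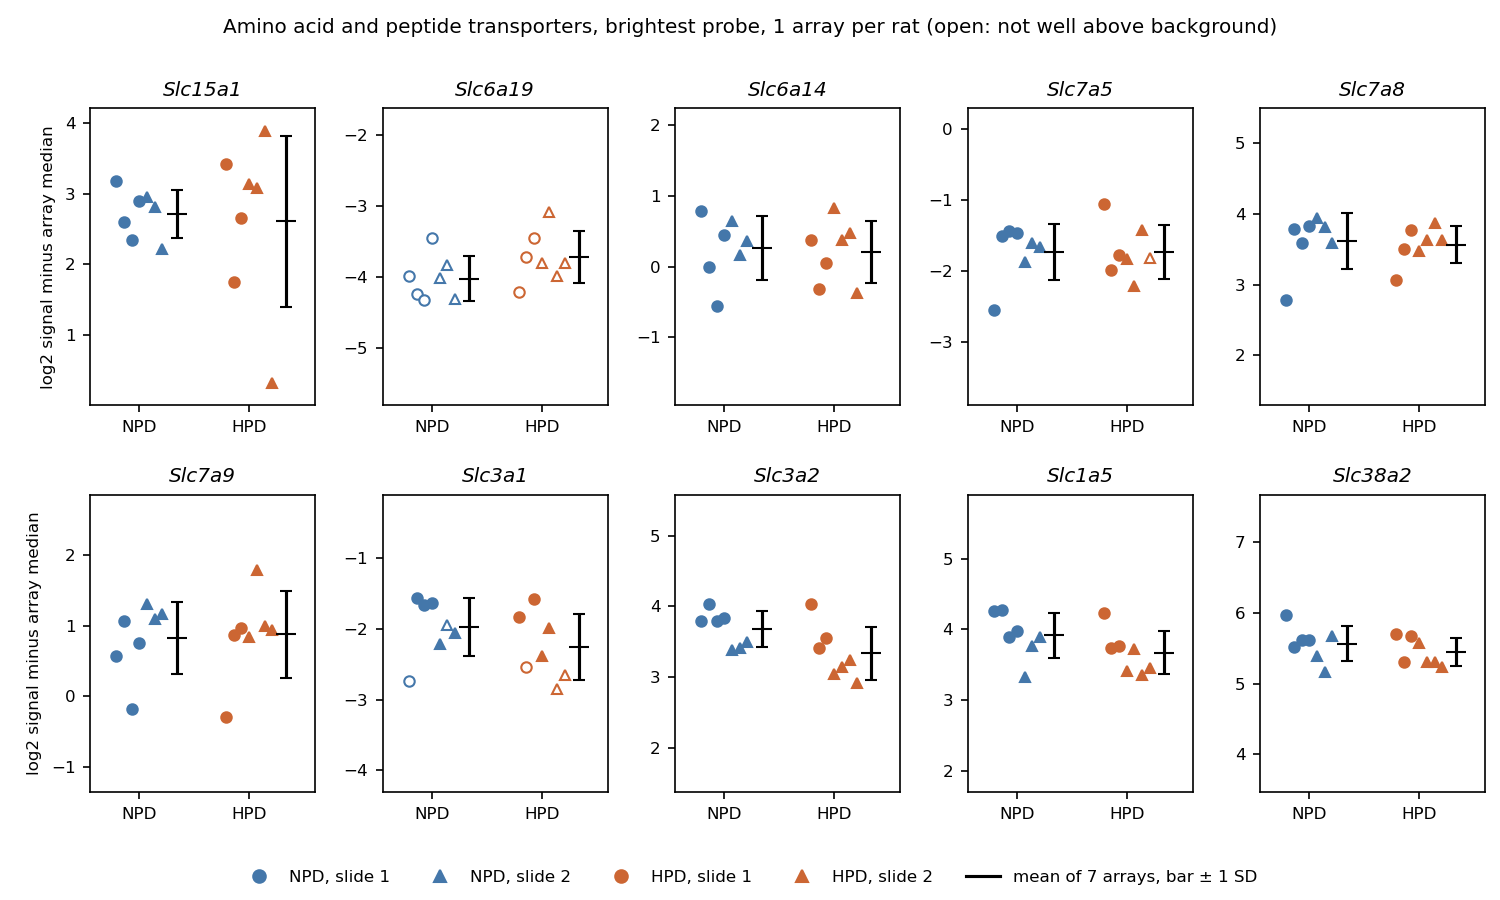
Log2 signal relative to the array median (vertical axis, 1 panel per gene, each spanning the same number of log2 units) of the brightest probe of each transporter in 7 NPD and 7 HPD rats. Circles are slide 1, triangles slide 2, open symbols are arrays on which the probe was not well above background, and the black bar is the mean ± 1 SD. The diets overlap in every panel, the HPD samples of Slc15a1 spread from 0.33 to 3.89, and those of Slc3a2 lie mostly below the NPD samples of the same slide.

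Sequences of 3 probes are given for the genes on which the results turn. The first is the probe of Slc3a2, the gene with the lowest p-value. The second is the dimmest of the 3 probes of Slc15a1, a gene with a wide range between rats. That probe was well above background on 5 NPD and 4 HPD arrays. The third belongs to Slc6a19, whose signal was not well above background. Each is 60 bases long and written 5′ to 3′, with coordinates on rn4, the build of the array file. The exon or UTR status of these positions was not looked up, since no annotation of that build was used here.
Slc3a2, chr1:211376528-211376587, minus strand: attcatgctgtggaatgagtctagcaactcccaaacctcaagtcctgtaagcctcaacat
Slc15a1 probe 3, chr15:106550096-106550155, minus strand: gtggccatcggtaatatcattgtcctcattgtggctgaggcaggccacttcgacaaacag
Slc6a19, chr1:30411522-30411581, plus strand: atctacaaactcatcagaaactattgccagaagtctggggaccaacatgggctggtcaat

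Of the carriers of the apical membrane, Slc15a1 had the widest range between rats, while its mean hardly differed between the diets. Slc15a1 encodes PepT1, the proton-coupled carrier that takes up di- and tripeptides and is best known from the small intestine. Its brightest probe, probe 1, was well above background on all 14 arrays. The NPD values ran from 2.22 to 3.18 with a median of 2.81, and the HPD values from 0.33 to 3.89 with a median of 3.08. The highest and the lowest of the 14 rats were thus both on the HPD, and 4 of 7 HPD rats lay above the NPD mean. The log2 fold change was -0.11 ± 0.43 (SE, 7 rats per diet), with a 95% confidence interval of -1.03 to 0.81 and an adjusted p of 0.908 in limma. The exact permutation test gave p = 0.85, and p = 0.877 within slides. Leaving out HPD replicate 7, the lowest rat, turned the estimate to 0.27 (limma, adjusted p = 0.768).

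With Slc15a1 probe 2, too, the highest and the lowest rats were on the HPD, although not always the same rats. The lowest, HPD replicate 7, was not well above background with probe 2. With probe 3 the highest rat was on the HPD, and the lowest values were not well above background. Probe 2 was well above background on 13 arrays, with NPD values of -1.68 to 0.09 (median -0.965) and HPD values of -3.15 to 0.39 (median -1.01). Probe 3 was above background on 9 arrays, 5 NPD and 4 HPD, with NPD values of -2.70 to -0.84 (median -1.86) and HPD values of -3.71 to -0.62 (median -2.25). The highest rat was HPD replicate 6 with probe 1 and HPD replicate 1 with probes 2 and 3, where replicate 6 stood at -0.44 and -1.31, below NPD replicate 1. HPD replicate 7 was the lowest with probes 1 and 2, followed by HPD replicate 2. With probe 3 neither of these rats was well above background, so their order carries no information. The log2 fold changes of probes 2 and 3 were -0.34 ± 0.44 and -0.46 ± 0.47 (SE), with limma adjusted p-values of 0.703 and 0.631. In the coordinates of the array file, probes 2 and 3 lie close together on chromosome 15, at 106549850 to 106549909 and 106550096 to 106550155. Probe 1 lies far from them at 106050223 to 106050282, and all are on the minus strand. Whether probe 1 reads the same transcript was not looked up. Across the 14 rats the probes correlated at Pearson's r = 0.87 (1 with 2), 0.78 (1 with 3) and 0.92 (2 with 3).

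The SD of probe 1 was 0.34 among the NPD rats and 1.21 among the HPD rats, and 0.54 against 1.17 and 0.59 against 1.22 for probes 2 and 3. Spots of the same probe on 1 array differed by less, with a mean SD of 0.05, 0.204 and 0.251. An exact two-sided permutation test of the deviations from each diet's median, chosen after the values were seen, gave p = 0.16, 0.0985 and 0.0472 for the 3 probes, and 0.16, 0.148 and 0.142 after adjustment over them. The wider spread under the HPD did not pass that test after adjustment. For probes 2 and 3 the test included arrays on which the probe was not well above background, for probe 2 HPD replicate 7 alone. Without HPD replicate 7 the permutation p-values were 0.325, 0.186 and 0.0921, and the SD among the HPD rats was 0.729, 0.865 and 1.165.

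**Figure D2:**
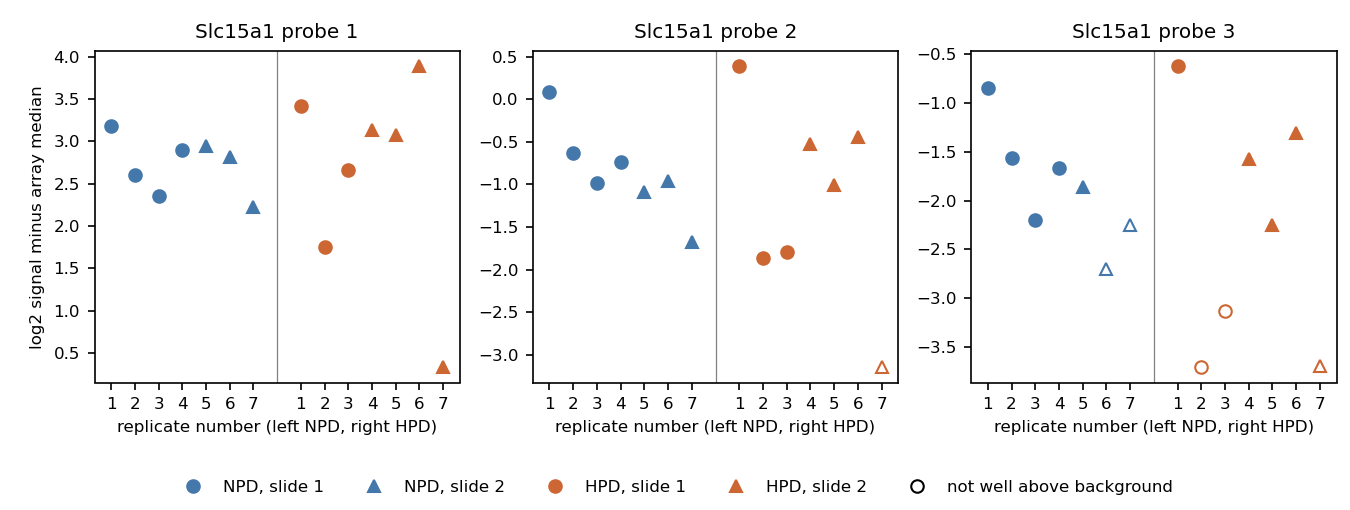
Log2 signal relative to the array median (vertical axis) of the 3 Slc15a1 probes in each rat, with the replicate number on the horizontal axis (NPD left, HPD right of the grey line). Replicate numbers have no order. Circles are slide 1, triangles slide 2, and open symbols were not well above background. HPD replicate 7 is lowest at 0.33 with probe 1 and at -3.15, not well above background, with probe 2. HPD replicate 1 is highest at 0.39 with probe 2 and -0.62 with probe 3.

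Slc6a19 encodes B0AT1, the main sodium-dependent carrier of neutral amino acids at the brush border of the small intestine and kidney. Its probe was not well above background on any of the 14 arrays, with NPD values of -4.33 to -3.45 (median -4.02) and HPD values of -4.21 to -3.09 (median -3.80). The diets overlapped, and no fold change is given because both groups were below background. Tmem27, its partner protein in the kidney, was above background on 1 NPD array and no HPD array.

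Slc6a14 encodes ATB0,+, a sodium- and chloride-dependent carrier of neutral and cationic amino acids that is known from the colon and lung. Its values were -0.55 to 0.79 (median 0.36) in the NPD rats and -0.37 to 0.83 (median 0.38) in the HPD rats, and the ranges nearly coincided. The log2 fold change was -0.06 ± 0.23 (SE), with an interval of -0.54 to 0.42 (limma, adjusted p = 0.90). The genomic coordinates given for its 60-base probe span 1089 bases, chrX:12069620-12070708.

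Slc7a9 and Slc3a1 encode b0,+AT and rBAT, the light and heavy chains of the apical exchanger of cystine and cationic amino acids. Slc7a9, with 10 spots per array, had NPD values of -0.18 to 1.30 (median 1.055) and HPD values of -0.29 to 1.79 (median 0.94). HPD replicate 1 was the lowest and HPD replicate 5 the highest of all rats, so the HPD range enclosed the NPD range. Its log2 fold change was 0.05 ± 0.28 (SE), with an interval of -0.54 to 0.65 (limma, adjusted p = 0.931). It turned to -0.04 with slide as a block, since slide 2 was higher than slide 1 by 0.63. Slc3a1 was above background on 5 NPD and 4 HPD arrays. Its values were -2.73 to -1.56 (median -1.95) and -2.85 to -1.58 (median -2.39), and 5 of 7 HPD rats lay below the NPD mean. Its log2 fold change was -0.29 ± 0.23 (SE; limma, adjusted p = 0.536). Its 2 spots on an array differed by a mean SD of 0.462, as much as the rats of a diet did (0.414 and 0.467).

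Among the exchangers that supply the cell or pass amino acids on, the shared heavy chain Slc3a2 had the lowest p-value of the 10 genes, and the estimates of the light chains Slc7a5 and Slc7a8 were close to 0. Slc3a2 encodes 4F2hc (CD98), which escorts Slc7a5, Slc7a8 and further light chains to the membrane. Its values were 3.39 to 4.04 (median 3.795) in the NPD rats and 2.92 to 4.03 (median 3.24) in the HPD rats. In slide 1 the NPD rats were at 3.79, 4.04, 3.80 and 3.84 and the HPD rats at 4.03, 3.41 and 3.55. In slide 2 the NPD rats were at 3.39, 3.41 and 3.50 and the HPD rats at 3.05, 3.15, 3.24 and 2.92. In slide 2 the diets did not overlap, and limma within that slide gave an unadjusted p of 0.0461 and an adjusted p of 0.868. The share of all probes that separate the diets in slide 2 was not worked out. In slide 1 HPD replicate 1 alone of the HPD rats reached the NPD range.

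The log2 fold change of Slc3a2 was -0.345 ± 0.17 (SE), a level 1.27 times higher under the NPD, with an interval of -0.71 to 0.02. limma gave p = 0.0609 and an adjusted p of 0.445, so it was not called, and the exact permutation test gave p = 0.0653. With slide as a block the change was -0.27 ± 0.11 (SE) with an interval of -0.50 to -0.05 (limma, unadjusted p = 0.0213, adjusted p = 0.259), and exact permutation within slides gave p = 0.0139. It was the only 1 of the 10 genes under an unadjusted p of 0.05 in that fit, where 14.6% of all probes were. The estimate was -0.20 within slide 1 and -0.34 within slide 2.

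The calls on Slc3a2 needed slide as a block, together with leaving out 1 rat or with the authors' values. On diet only without HPD replicate 1, Slc3a2 was at -0.46 and not called (limma, adjusted p = 0.136). Without HPD replicate 1 and with slide as a block, a setting chosen after the values were seen, the change was -0.36 ± 0.085 (SE; limma, adjusted p = 0.0587). It was then called, as were 5.4% of all probes. The authors' normalized table with slide as a block gave -0.38 ± 0.11 (SE; limma, adjusted p = 0.0714), where 10.5% of all gene names were called. In both settings Slc3a2 was the 1 transporter called of the 10, and its estimate stayed below 0 in each of the 31 alternatives run, from -0.47 to -0.20. Background correction by normexp with median centring called 16.9% of all probes and 0 of the 10 genes, with Slc3a2 at -0.44 (limma, adjusted p = 0.101).

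Slc7a5 encodes LAT1, the exchanger that imports leucine and other large neutral amino acids for growth. Its values were -2.55 to -1.44 (median -1.61) in the NPD rats and -2.22 to -1.05 (median -1.82) in the HPD rats, well above background on 13 arrays. NPD replicate 1 stood at the low end and HPD replicate 1 at the high end of all rats. The log2 fold change was 0.001 ± 0.20 (SE), with an interval of -0.43 to 0.43 (limma, adjusted p = 0.997). Without NPD replicate 1 it was -0.14, and without HPD replicate 1 it was -0.11 (limma, adjusted p = 0.761 and 0.71).

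Slc7a8 encodes LAT2, the basolateral exchanger of neutral amino acids. Its values were 2.78 to 3.94 (median 3.78) and 3.06 to 3.87 (median 3.63), with replicate 1 the lowest rat of both diets. The log2 fold change was -0.05 ± 0.18 (SE), with an interval of -0.43 to 0.33 (limma, adjusted p = 0.891).

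Slc1a5 encodes ASCT2, an exchanger of glutamine and other small neutral amino acids, and Slc38a2 encodes SNAT2, a sodium-coupled carrier known to be induced when amino acids are scarce. Slc1a5 was at 3.33 to 4.28 (median 3.90) in the NPD rats and 3.36 to 4.24 (median 3.73) in the HPD rats. HPD replicate 1 was the 1 of 7 HPD rats above the NPD mean. Its log2 fold change was -0.245 ± 0.17 (SE; limma, adjusted p = 0.515), with an interval of -0.605 to 0.115 and an exact permutation p of 0.156. Slc38a2 was at 5.17 to 5.97 (median 5.61) and 5.24 to 5.70 (median 5.315), with the HPD range inside the NPD range. Its change was -0.12 ± 0.13 (SE; limma, adjusted p = 0.65), with an interval of -0.40 to 0.16.

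**Figure D3:**
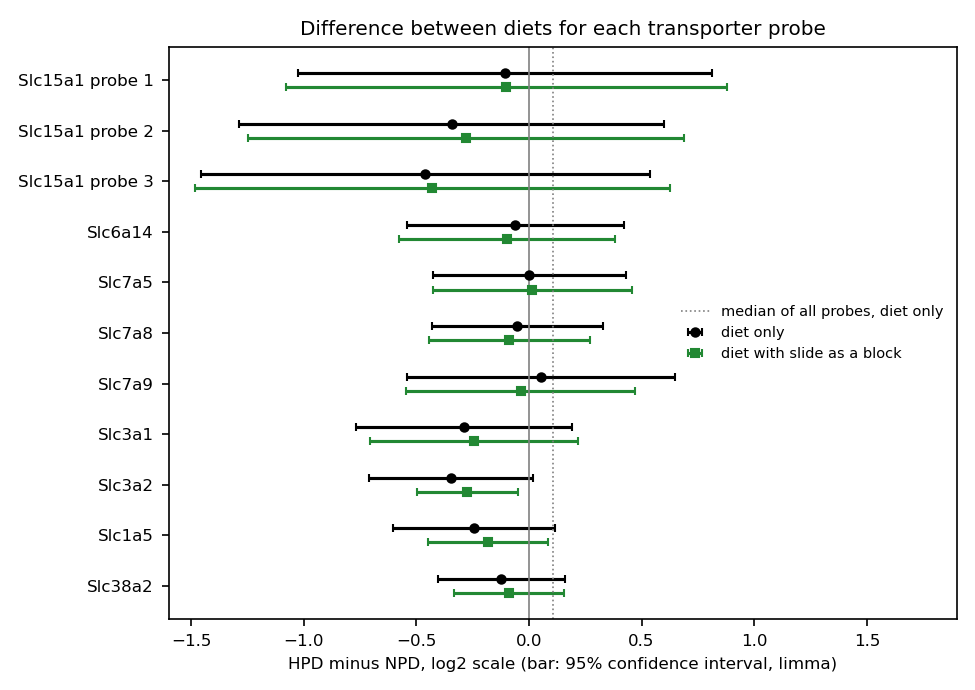
Difference between the diets, HPD minus NPD on the log2 scale (horizontal axis), for the 11 probes of the 9 transporters measured above background, with 95% confidence intervals from limma. Circles are the fit on diet only and squares the fit with slide as a block, and the dotted line is the median of all probes. The interval of Slc3a2 reaches from -0.71 to 0.02 on diet only and from -0.50 to -0.05 with the block.

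The precision differed between the genes. With 7 rats per diet, the intervals of Slc7a5, Slc7a8 and Slc38a2 lay within 0.5 log2 units on either side of 0, while those of Slc15a1 reached beyond 0.8 on both sides for probe 1. For some genes the slides differed by more than the diets did. Between slides, 40.1% of all probes differed at an adjusted p below 0.1 in limma, and so did 3 of the 10 genes, with slide 2 lower for Slc3a2 (-0.50) and Slc1a5 (-0.43) and higher for Slc7a9 (0.63).

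Whether the transcripts of partner proteins varied together across the rats was examined for 4 pairs, and 0 passed. Slc7a5 and Slc3a2, the chains of LAT1, had Pearson's r = 0.37 (permutation p = 0.192, adjusted over the 4 pairs 0.596) and Spearman's rho = 0.49 (permutation p = 0.0817, adjusted 0.327) over 14 rats. Without the 2 rats farthest from the median of Slc7a5, r was 0.59 (permutation p = 0.0454, adjusted 0.167). Within slides r was 0.51 and 0.33 (exact permutation p = 0.234 and 0.475), and within the NPD and the HPD it was 0.11 and 0.67 (exact permutation p = 0.856 and 0.103).

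Slc7a8 and Slc3a2, the chains of LAT2, gave r = -0.30 (permutation p = 0.298, adjusted 0.596) and rho = -0.10 (permutation p = 0.726, adjusted 0.94), and r = 0.28 without the 2 farthest rats. Slc7a9 and Slc3a1 gave r = -0.17 (permutation p = 0.578, adjusted 0.719) and rho = -0.02 (permutation p = 0.94, adjusted 0.94), and r = 0.26 without the 2 farthest. Slc1a5 and Slc7a5, which together form a cycle that trades glutamine for leucine, gave r = 0.11 (permutation p = 0.719, adjusted 0.719) and rho = 0.27 (permutation p = 0.355, adjusted 0.71), and r = 0.52 without the 2 farthest. Within slides these 3 pairs gave r = -0.16 and 0.46, -0.06 and 0.57, and 0.07 and -0.11, in that order.

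For some of the transporters the genes of highest correlation across the rats were looked up among 12182 probes well above background on all arrays. Slide means were removed and the difference between diets was not. These correlations over 14 arrays are descriptions without a test. They were picked as the highest of the search, and the level that such a search reaches by chance was not worked out. The closest to Slc15a1 were Atp12a, a proton and potassium pump of the colon, and Pllp (r = 0.89 each). The closest to Slc38a2 were the early growth response factors Egr2 (0.89) and Egr1 (0.87). Slc3a2 was closest to Ogdh, a subunit of the 2-oxoglutarate dehydrogenase (0.94), and Slc10a3 (0.93), and 22 genes had a correlation with it above 0.9. For Slc1a5 they were Dhx8 and the translationally controlled Tpt1 (0.94 each), for Slc6a14 Tppp and the carnitine carrier Slc22a5 (0.89 each), for Slc7a8 Pex26 and Suds3 (0.90 each) and for Slc7a9 Lrp1 (0.85) and the glucagon receptor Gcgr (0.78).

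A list of 43 further amino acid and peptide transporters and partner proteins was on the array in full, and limma called 0 of them over all probes. At an unadjusted p under 0.05, 5 were higher and 1 lower in the HPD group, 14.0% of the list beside 11.4% of all probes. Their median log2 fold change was 0.106, and that of all probes 0.105. Of the 43, 7 were not well above background on any array, and of the 26 that were above it on all arrays of at least 1 diet, 2 were higher and 1 lower at that unadjusted p. With slide as a block, 6 of the 43 were higher and 3 lower at an unadjusted p under 0.05, 20.9% beside 14.6% of all probes. Among those 6, Slc7a10 was not well above background on any array, and Slc36a2 and Slc38a3 were so on 1 array each.

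The 3 measured genes under an unadjusted p of 0.05 on diet only were Slc6a18, Slc1a1 and Slc38a10. Slc6a18, a relative of Slc6a19, was at 1.45 ± 0.27 (SD, n = 7) under the NPD and 1.80 ± 0.23 (SD, n = 7) under the HPD, a change of 0.35 ± 0.14 (SE; limma, adjusted p = 0.418; exact permutation p = 0.0268). Slc1a1, the carrier of glutamate and aspartate EAAT3, went from 3.17 ± 0.40 to 3.54 ± 0.20 (SD, n = 7), a change of 0.37 ± 0.17 (SE; limma, adjusted p = 0.437; exact permutation p = 0.0495). Slc38a10, a relative of Slc38a2, was at 4.77 ± 0.16 and 4.48 ± 0.24 (SD, n = 7), a change of -0.29 ± 0.13 (SE; limma, adjusted p = 0.425; exact permutation p = 0.0157). None of the 3 was called. With slide as a block the interval of Slc1a1 reached from -0.009 to 0.72, and exact permutation within slides gave p = 0.0571, while Slc6a18 and Slc38a10 had exact permutation p-values of 0.0335 and 0.0204 within slides. The next lowest p-values among the measured genes were those of Slc36a1, the proton-coupled carrier PAT1, at 0.28, and Slc7a4, at -0.39 (limma, adjusted p = 0.441 and 0.444).

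Of the further light chains of Slc3a2, 2 were measured on all arrays. Slc7a6 (y+LAT2) was at 1.24 ± 0.27 and 1.48 ± 0.35 (SD, n = 7), and Slc7a11, the cystine and glutamate exchanger xCT, at -0.22 ± 0.77 and 0.15 ± 0.63 (SD, n = 7). Their changes were 0.24 and 0.37 (limma, adjusted p = 0.515 and 0.603). Slc7a7 (y+LAT1) was above background on 5 NPD arrays and 1 HPD array (limma, adjusted p = 0.485), and Slc7a10 was not above background on any array. The basolateral carrier of aromatic amino acids Slc16a10 (TAT1) had a change of -0.14 ± 0.27 (SE; limma, adjusted p = 0.791).

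Of the other peptide transporters, Slc15a2 (PepT2) was above background on 1 of 14 arrays. Slc15a4, a lysosomal carrier of histidine and peptides, was at 2.92 ± 0.32 and 2.58 ± 0.35 (SD, n = 7), a change of -0.34 ± 0.18 (SE; limma, adjusted p = 0.453). Its relative Slc15a3 had a change of -0.24 ± 0.23 (SE; limma, adjusted p = 0.614).

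**Figure D4:**
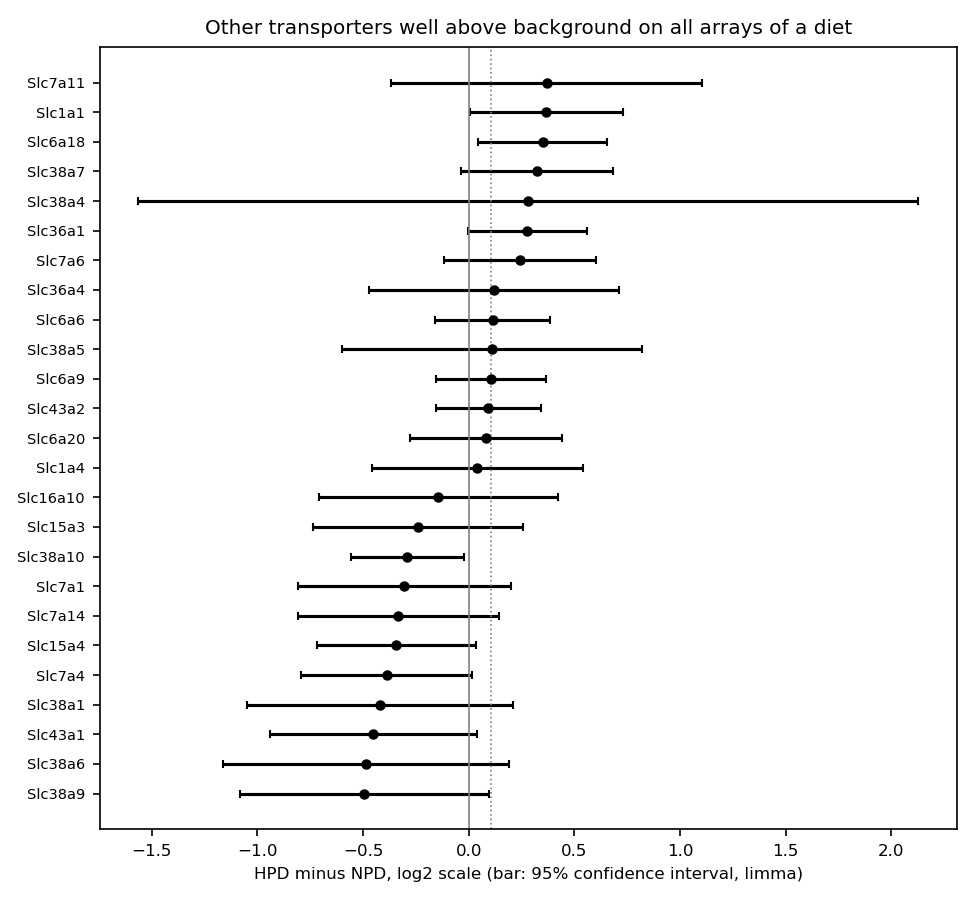
Difference between the diets, HPD minus NPD on the log2 scale (horizontal axis), with 95% confidence intervals from limma, for 25 of the 26 further transporters and partner proteins well above background on all arrays of at least 1 diet. The dotted line is the median of all probes, 0.105. On diet only, the intervals of Slc6a18 and Slc1a1 lie above 0, that of Slc38a10 below 0, and none of the 26 was called after adjustment.

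The promoter windows of the transporters, 300 bases around the start of transcription in RefSeq's GRCr8 annotation, were searched on both strands for TGATGNAA, the core of the amino acid response element to which ATF4 binds. Windows were held for 9 of the 10 genes, Slc3a2 with 2. The letters were in 0 of these 10 windows and in 3.98% of all 33469 windows. This says only that the letters are not in these windows.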

How the data were processed

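Colonocyte RNA of 7 NPD and 7 HPD rats was hybridised to 1-colour Agilent arrays, and groups were taken from the sample labels. The authors deposited 1 scanner file per array (Agilent Feature Extraction 10.7.3.1), with an intensity per spot on a linear scale, background-subtracted by that software, and a table of log2 values per gene name, centred by array and averaged over spots. Columns of other samples numbered 0.

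Control spots and outlier spots were left out, the processed intensity was log2-transformed, spots of a probe were averaged, and each array was centred on its median. Of 62976 spots, 58717 were not controls. A probe counted as well above background on an array where at least 1 of its spots was marked so. The effect of diet was fitted in R 4.3.3 with limma 3.58.1 (lmFit, eBayes, two-sided, Benjamini-Hochberg over 30367 probes, q below 0.1), without a filter on signal. Files were read with the data.table package (1.17.8). The fit was tested on simulated data. Correlations used 100000 permutations, or all orders within 7 rats. The smallest p of the permutation over all splits is 0.000583. The number of arrays limits the precision.

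The 10 genes and all lists were chosen with earlier results of these data known. Named further genes were the light chains of Slc3a2, Tmem27, the other Slc15 carriers, Slc16a10, any called gene and the 5 measured genes of lowest p. For each transporter well above background on all arrays the 2 most correlated gene names were added. The brightest probe stood for a gene. Replicate numbers were not taken as pairs. The alternatives were other signal columns, centrings, normalizations, background corrections (normexp, offset 50) and filters, slide or replicate number as a block, a trend in eBayes, the mean of a gene's probes, the deposited table, q below 0.05 and leaving out each array. Probe coordinates are those of the array files (rn4), and promoter windows are RefSeq's (GRCr8). Protein sequences and samples that the authors removed as outliers were not used here, and 1 gene of the list of further transporters is not reported here by name.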

Additional observations from a re-analysis of the deposited data

Results flagged for a closer look

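In 48 groups of 7 rats, those of the transporter probes and of the further transporters chosen by rule in which at least 1 array was well above background, Dixon's gap test marked 5 single rats, and chance alone would mark about 1 group in 20. NPD replicate 1 was low for Slc7a5 at -2.55, where the next NPD rat was at -1.88, and for Slc7a8 at 2.78, where the next was at 3.58. The same rat was low for Slc16a10 at -1.35 (next -0.60), and HPD replicate 1 was low for that gene in its own group at -2.07 (next -0.79). For Tmem27, NPD replicate 3 was high at -2.73 (next -3.95), on the 1 array where that probe was well above background.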

How the results depend on the processing

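No transporter was called in the fit with diet only, under the alternatives listed with the methods or in any fit that leaves out 1 array (0 to 0 called). Of the 3 settings chosen after seeing the data, 2 called 1 of the 10, Slc3a2. It was at -0.38 in the authors' table once slide was a block and at -0.36 with slide as a block without HPD replicate 1. Over the array the calls numbered 17, 9 to 151 when 1 array was left out (151 without HPD replicate 1 and 28 without HPD replicate 6), 8 with the replicate block, 27 with slide as a block, 1640 with slide as a block without HPD replicate 1, 5142 with normexp and median centring, and 2767 in the authors' table once slide was a block. Of the 43 further transporters, limma called 0, but 7 with normexp and median centring, of which Slc38a10 and Slc36a1 were well above background on all arrays of a diet (16.3% of the list, where 16.9% of all probes were called), and 3 in the authors' table once slide was a block (Slc38a10, Slc7a4 and Slc7a10, 6.98% of the list, where 10.5% of all gene names were called).

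Some estimates changed sign. Slc3a1, at -0.29, turned to 0.043, 0.016 and 0.059 with the mean pixel signal, the median pixel signal and normexp with median centring. Slc7a5, at 0.001, turned to -0.05 with quantile normalization, -0.073 with cyclic loess, -0.11 within slide 2 and -0.12 with slide as a block without HPD replicate 1. Slc7a9, at 0.05, turned to -0.037 with slide as a block, -0.027 in the authors' table, -0.076 in that table once slide was a block, -0.033 within slide 1 and -0.041 within slide 2. When each array was left out in turn, Slc15a1 ranged from -0.32 to 0.27, Slc6a14 from -0.20 to 0.034, Slc7a5 from -0.14 to 0.082, Slc7a8 from -0.19 to 0.032 and Slc7a9 from -0.11 to 0.25. Slc3a2, from -0.46 to -0.28, Slc1a5, Slc38a2 and Slc3a1 kept their sign in these fits. The cause of these changes was not tested.

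Correlations between partners also changed sign. Slc7a8 with Slc3a2 had r = 0.28 without the 2 farthest rats, 0.46 within slide 2 and 0.01 with slide means removed. Slc7a9 with Slc3a1 had r = 0.26, 0.57 and 0.12 in the same settings and 0.28 with the median pixel signal. Slc1a5 with Slc7a5 had r = -0.11 within slide 2, -0.16 within the NPD and -0.25 with the median pixel signal, and Slc7a5 with Slc3a2 had -0.07 with the median pixel signal.

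Same-numbered NPD and HPD arrays had deviations that correlated at 0.14 to 0.39 in 6 of 7 pairs, each within 1 slide. The correlation was -0.09 for replicate 4, whose arrays lie on different slides. The level for arrays of different numbers on the same slide is not given here. Of the NPD arrays 1 of 7, and of the HPD arrays 4 of 7, were closest to their own number. The numbers were not taken as pairs because 1 pair was not positive and no label names what they share. With the replicate block Slc3a2 was at -0.345 ± 0.132 (SE; limma, unadjusted p = 0.0292, adjusted p = 0.207), and no transporter was called. Dim probes limit Slc6a19, Slc3a1 and probe 3 of Slc15a1, which were not well above background on all arrays. Slc7a5 and probe 2 of Slc15a1 were well above background on 6 of 7 HPD arrays and all NPD arrays. The 2 spots of Slc7a5 on an array differed by a mean SD of 0.274, beside 0.393 among the NPD rats and 0.382 among the HPD rats.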

Other observations

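Slc38a4, which encodes the sodium-coupled amino acid carrier SNAT4, was singled out after its values were seen. It had the widest range of the 43 further transporters, from -0.21 to 3.11 in the NPD rats and from -2.15 to 4.86 in the HPD rats. It was well above background on 7 NPD arrays and 6 HPD arrays. Its lowest rat was HPD replicate 1, where Slc15a1 probe 1 was at 3.42, and its highest was HPD replicate 7, where Slc15a1 probe 1 was at 0.33. The mean difference between the diets was 0.28 ± 0.865 on the log2 scale (SE; limma, adjusted p = 0.875), and slide 2 lay 1.61 above slide 1. HPD replicate 6, the highest rat for Slc15a1 probe 1 at 3.89, was at 2.97 for Slc38a4. NPD replicate 4 had the highest values of 4 of the 5 immune markers, with Cd79b at 2.03 and Ptprc at 2.61, while Cd68 was highest in HPD replicate 6. In NPD replicate 4 Slc3a2 and Slc15a1, at 3.84 and 2.90, lay inside the range of the other NPD rats.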
